A study of Mus musculus and Rattus norvegicus with 96 samples.

Results

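Conjugation with glucuronic acid or sulfate was followed in mouse liver through 10 genes, chosen by name with earlier results of these data known. They were the UDP-glucuronosyltransferase genes Ugt2b34, Ugt2b35, Ugt2b36, Ugt2b1, Ugt2b5 and Ugt1a1, the sulfotransferase genes Sult1a1, Sult1d1 and Sult5a1, and Papss2, which encodes a supplier of activated sulfate. These were 10 of the 24543 genes in the RNA-seq count table, and all 10 were among the 13360 genes that passed the low-count filter and were tested. Livers came from 12 male B6C3F1 mice aged 10 to 11 weeks. For 7 days 6 mice drank water with 600 ppm phenobarbital (PB), and the 6 vehicle control (Con) mice drank it without. Each liver was prepared in 4 ways, giving 48 libraries in 8 groups of 6. Frozen (FR) samples were flash frozen. FFPE samples went fresh into 10% neutral buffered formalin for about 18 h before paraffin. FR>FFPE samples were frozen first and then went through the same formalin and paraffin steps, and FR>OH samples were frozen first, fixed in 70% ethanol and embedded in paraffin. Paraffin blocks were about 16 months old at RNA isolation, and the RNA of FR samples was isolated with another chemistry than that of the embedded samples, so that extraction and preparation cannot be told apart. The study's methods also give FFPE samples shorter fragmentation and heating times during library preparation, which cannot be told apart from preparation either.

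UDP-glucuronosyltransferases of the endoplasmic reticulum join glucuronic acid from UDP-glucuronate to drugs, steroids, bile acids and bilirubin. Cytosolic sulfotransferases join sulfate from the donor PAPS to phenols, steroids and amines, and PAPS synthases make that donor. Both steps give water-soluble conjugates that leave the hepatocyte through export pumps. Phenobarbital activates the nuclear receptor CAR, which induces many genes of drug metabolism in hepatocytes, and Cyp2b10 is its classical target.

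The 5 Ugt2b genes and Sult1d1 lay together on chromosome 5 (GRCm38). Between the outer ends of Ugt2b34 and Sult1d1, chr5:86889770-87569007, the count table held 12 genes over 679 kb, of which 6 were the genes followed here. In order along the chromosome these were Ugt2b34 at chr5:86889770-86906938, Ugt2b1 at chr5:86916639-86926504, Ugt2b35 at chr5:87000860-87013275, Ugt2b36 at chr5:87065927-87092556, Ugt2b5 at chr5:87124947-87140341 and Sult1d1 at chr5:87554650-87569007. Ugt2b35 was on the plus strand and the other 5 on the minus strand. The remaining 4 genes were on other chromosomes, Ugt1a1 at chr1:88211959-88220003 on the plus strand, Sult1a1 at chr7:126672870-126676358 on the minus strand, Sult5a1 at chr8:123142847-123158281 on the minus strand and Papss2 at chr19:32595715-32667188 on the plus strand.

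Several of these genes have close copies, and reads that fit more than 1 gene were divided by the authors' expectation-maximization step. Of all 50-base stretches of the longest annotated Ugt1a1 transcript, 58.2% also occurred in Ugt1a7c, since genes of the Ugt1a locus share their last exons. For Ugt2b5 41.7% occurred in other genes, 34.8% in Ugt2b38 alone. The share was 7.72% for Sult1a1, 2.07% for Ugt2b34, 1.36% for Sult5a1 and at most 0.326% for Ugt2b35, Ugt2b36, Ugt2b1, Sult1d1 and Papss2. Values of Ugt1a1 and Ugt2b5 are therefore uncertain in how reads were split within their families, and changes of the family sums are given for PB in FR and for each comparison between preparations.

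Promoter sequence was taken from RefSeq (GRCm38.p6), which held all 10 genes. Windows of 250 bases before to 50 bases after the transcription start were searched on both strands for AGGTCA and AGTTCA (half-sites of nuclear receptors), GTTAAT (a half-site of HNF1, a hepatocyte factor), TATAAA (the TATA box), CCAAT and GCGTG (the core of the AHR site). No match overlapped another. The letters AGGTCA were in 4 of the 10 genes and in 16.3% of 32851 promoters, and AGTTCA in 3 of 10 genes and 14% of promoters. GTTAAT was in 3 of 10 genes against 7.1% of promoters, CCAAT in 3 against 37.4%, TATAAA in 1 against 13.6% and GCGTG in 1 against 32.4%. The 5 sequences shown are those of genes that rose with PB in FR and held a nuclear receptor half-site before the start of their 1 listed promoter. Each is the 250 bases before the start, 5′ to 3′ on the gene's strand, with every matched motif on either strand in capitals: Ugt2b35 at chr5:87000610-87000859, Ugt2b36 at chr5:87092556-87092805, Ugt2b5 at chr5:87140341-87140590, Ugt1a1 at chr1:88211709-88211958 and Sult1d1 at chr5:87569007-87569256.
Ugt2b35: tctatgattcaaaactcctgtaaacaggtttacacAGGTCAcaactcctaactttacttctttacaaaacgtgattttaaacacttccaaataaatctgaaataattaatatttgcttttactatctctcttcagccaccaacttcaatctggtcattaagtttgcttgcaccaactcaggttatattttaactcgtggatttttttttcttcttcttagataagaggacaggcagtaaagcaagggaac
Ugt2b36: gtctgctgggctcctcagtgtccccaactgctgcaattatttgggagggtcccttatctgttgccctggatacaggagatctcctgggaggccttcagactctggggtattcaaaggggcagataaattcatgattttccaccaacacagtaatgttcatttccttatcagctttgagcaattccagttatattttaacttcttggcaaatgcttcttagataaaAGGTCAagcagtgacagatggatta
Ugt2b5: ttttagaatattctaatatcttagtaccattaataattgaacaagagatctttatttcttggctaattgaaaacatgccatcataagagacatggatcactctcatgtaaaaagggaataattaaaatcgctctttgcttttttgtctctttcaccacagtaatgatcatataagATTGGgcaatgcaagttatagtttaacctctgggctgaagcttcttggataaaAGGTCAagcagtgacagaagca
Ugt1a1: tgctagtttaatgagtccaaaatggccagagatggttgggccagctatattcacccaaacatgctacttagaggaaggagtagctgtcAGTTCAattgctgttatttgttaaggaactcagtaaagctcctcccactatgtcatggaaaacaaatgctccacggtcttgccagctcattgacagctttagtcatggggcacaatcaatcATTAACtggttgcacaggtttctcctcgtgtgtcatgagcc
Sult1d1: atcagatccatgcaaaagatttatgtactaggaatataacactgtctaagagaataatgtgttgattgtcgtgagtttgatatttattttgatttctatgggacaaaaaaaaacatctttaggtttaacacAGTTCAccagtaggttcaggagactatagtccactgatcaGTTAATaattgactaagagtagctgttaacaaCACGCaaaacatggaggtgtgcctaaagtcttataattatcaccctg
AGGTCA began 25 bases before the start in Ugt2b36 and 22 bases before it in Ugt2b5, and 215 bases before it in Ugt2b35. Over the whole windows Ugt2b36 and Ugt2b5 were the most alike pair of the 5 Ugt2b genes, with 70.6% identity over 279 aligned bases. AGTTCA began 162 bases before the start in Ugt1a1 and 119 bases before it in Sult1d1. A match is only a run of letters, and regulatory sequence can lie far outside such a window. Ugt2b34, Sult5a1 and the first of the 2 Papss2 promoters held none of the motifs.

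The libraries held 4952797 to 13702672 gene counts each, and levels are given as CPM, counts scaled to a total of 1000000 per library. The authors' log2 CPM rest on a library size that was worked back here from their values and is called total reads below, an inferred name. Gene counts were 46.6% to 51.8% of this size in FR libraries and 21.4% to 27.5% in FFPE libraries, and the other 2 preparations lay between. Rn45s, the ribosomal RNA precursor, took 4206 to 13060 CPM in FR and 81270 to 127600 CPM in FFPE. Cyp2b10 was at most 2.449 CPM in Con and at least 1078 CPM in PB libraries, so each library matched its treatment label. All 6 hepatocyte markers were present, and their sum in Con mice was 62700 to 95720 CPM for FR against 29970 to 43240 CPM for FFPE. The L number in the sample titles, whose meaning the labels do not give, moved with treatment and with preparation. In FR>FFPE all Con libraries shared a number and all PB libraries had another, so that L number and treatment cannot be told apart there. L numbers were 2 and 3 in FR, 1 and 2 in FFPE, 3 and 4 in FR>FFPE and 4 and 5 in FR>OH. No L number of Con libraries was shared between preparations. FFPE and FR>FFPE shared none in either treatment, nor did FR>OH and FR. In those comparisons L number and preparation cannot be told apart.

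Levels between genes were compared as CPM per kilobase of transcript. In FR Con livers the order of the medians was Ugt2b1 (334.7 CPM per kb), Ugt2b5 (288.3), Ugt2b36 (195.6), Ugt2b34 (129.4), Ugt1a1 (108.6), Sult1a1 (82.92), Ugt2b35 (55.38), Papss2 (39.43), Sult1d1 (36.1) and Sult5a1 (3.988). Neighbours in this order overlapped in the range over 6 mice, except that Ugt2b36 (lowest 151.3) lay above Ugt2b34 (highest 139.8), that Sult1a1 (lowest 63.85) and Ugt2b35 (highest 63.67) were just apart, that Ugt2b35 (lowest 46.13) lay above Papss2 (highest 44.12), and that Sult5a1 (highest 5.172) lay far below Sult1d1 (lowest 28.29). In FR PB livers Ugt2b5 (585.6 CPM per kb) and Ugt2b1 (568.3) led, and Ugt2b34 (438) came level with Ugt2b36 (436.5).

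The first question was how PB changed these genes in frozen liver, the reference preparation. Of the 10 genes, 9 rose and none fell in FR PB compared to Con livers at an adjusted p under 0.05 (edgeR's quasi-likelihood test, Benjamini-Hochberg over all genes), where 5.85% of all genes tested rose. With a fold of at least 2 as well, 5 genes rose, Ugt2b34, Ugt2b35, Ugt1a1, Ugt2b36 and Sult1d1, against 1.74% of all genes. The 1 gene that did not pass was Sult1a1. In bulk tissue a change in the number of cells that express a gene and a change in RNA per cell cannot be told apart.

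**Figure D1:**
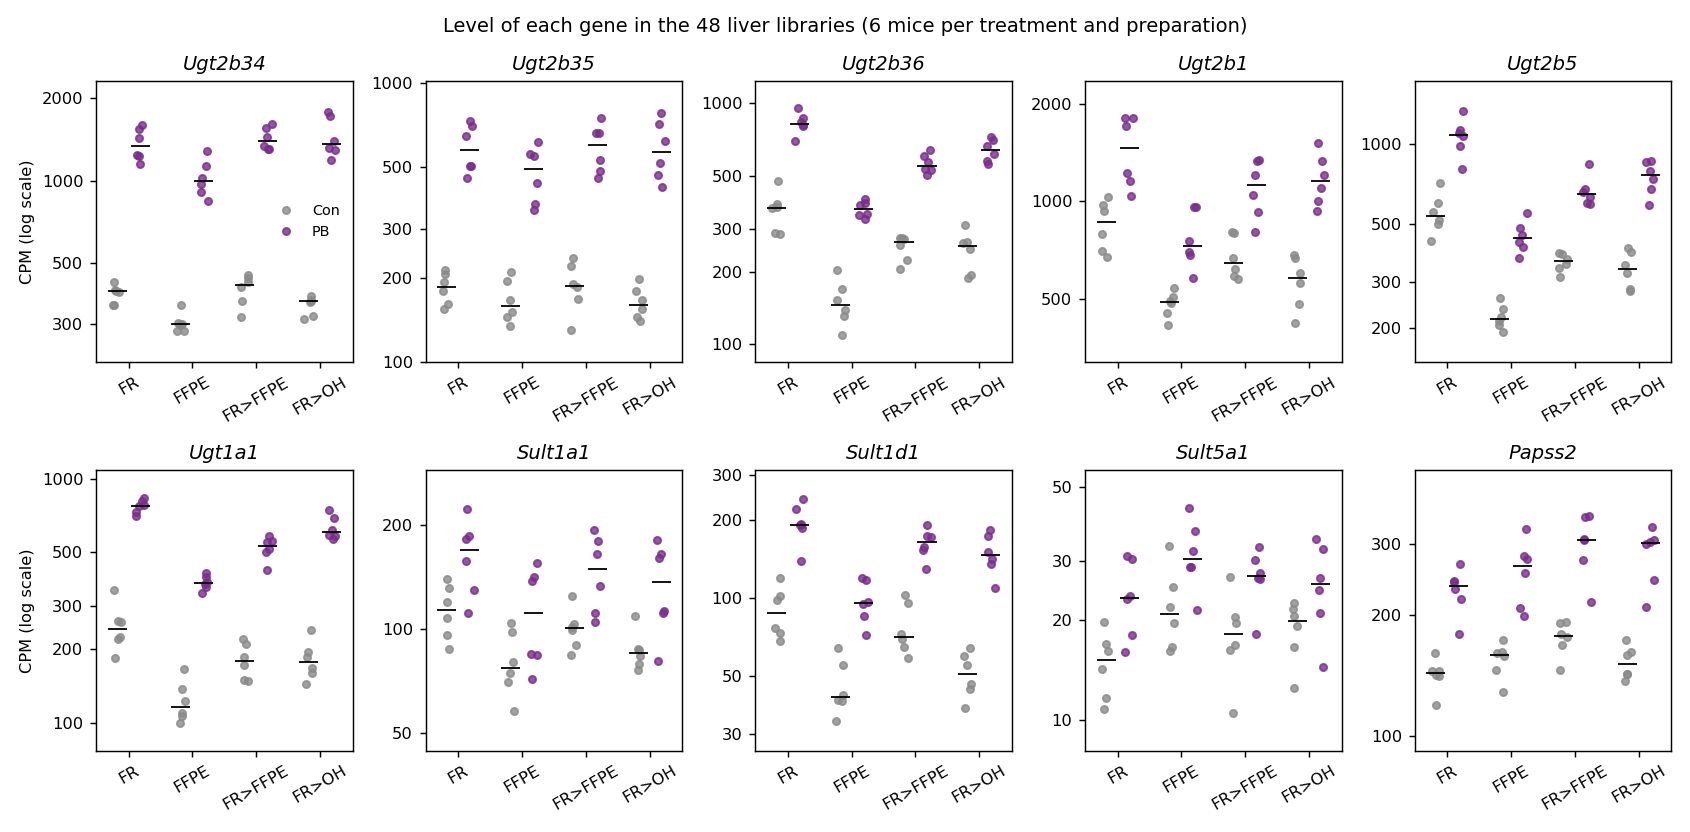
Levels of the 10 genes in all 48 libraries, as CPM on a log axis, by preparation and treatment; points are mice and bars the group medians. Con and PB points overlap in every preparation for Sult1a1 and Sult5a1 and separate in every preparation for the other genes shown.

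The Ugt2b enzymes, which conjugate steroids, bile acids and many drugs, differed widely in how far they rose. Ugt2b34 was 352.4 to 426.5 CPM (median 394.9) in FR Con and 1149 to 1591 CPM (median 1336) in FR PB. Every PB liver was above every Con liver, and the rise was 3.53-fold (log2 change 1.82 ± 0.10 SE, adjusted p = 2.89e-18, edgeR). Ugt2b35 went from 155 to 213.9 CPM (median 186) to 457.5 to 727.7 CPM (median 574.1), a 3.19-fold rise (1.68 ± 0.16, adjusted p = 4.14e-11, edgeR). Groups were again fully apart. Ugt2b36 was 285.7 to 475.7 CPM (median 369.3) in Con and 697.2 to 951.7 CPM (median 824.2) in PB livers, a 2.29-fold rise (1.20 ± 0.12, adjusted p = 2.92e-10, edgeR).

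The 2 Ugt2b genes with the highest levels per kilobase had the smallest rises. Ugt2b5 was 427.7 to 711.97 CPM (median 535.7) in FR Con and 804.5 to 1341 CPM (median 1088) in FR PB, 1.95-fold higher (0.96 ± 0.12, adjusted p = 3.34e-08, edgeR). Ugt2b1 was 671.8 to 1030 CPM (median 861.1) in Con and 1036 to 1806 CPM (median 1462) in PB livers, 1.71-fold higher (0.77 ± 0.15, adjusted p = 0.00036, edgeR). The lowest Ugt2b1 value in PB was only just above the highest in Con. Summed over its 7 genes, the Ugt2b family rose by 1.18 ± 0.098 on the log2 scale. Within that sum the share of Ugt2b34 was 16.6% ± 1.97 (SD, n = 6) in Con and 25.7% ± 3.79 in PB livers, while that of Ugt2b1 was 35.9% ± 2.54 and 27.1% ± 5.34. Neighbouring genes of the chromosome 5 region did not pass (adjusted p = 0.123 to 0.824): Ugt2a3 had a mean of 213 CPM in Con and 227 CPM in PB (log2 change 0.09 ± 0.17, edgeR), Ugt2b37 differed by 0.56 ± 0.34, Sult1b1 by 0.51 ± 0.21 and Ugt2b38 by -0.21 ± 0.35, and Ugt2a1 and Ugt2a2 were at 0 in FR.

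Ugt1a1, the enzyme that conjugates bilirubin, was 183.8 to 349.5 CPM (median 241.4) in FR Con and 704.2 to 835.6 CPM (median 774.5) in FR PB. It rose 3.09-fold (1.63 ± 0.12, adjusted p = 3.86e-14, edgeR). The coefficient of variation between mice was 22.7% in Con and 6.25% in PB. Over all 8 genes of the Ugt1a family the rise was 1.12 ± 0.103 on the log2 scale, and the Ugt1a1 share of the sum was 39.6% ± 2.37 in Con and 56.9% ± 1.21 in PB livers (SD, n = 6).

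Among the sulfotransferases, Sult1d1, an enzyme that acts on catecholamines and other phenols, rose 2.18-fold. It was 68.46 to 120.2 CPM (median 87.36) in FR Con and 139.1 to 241.1 CPM (median 192.5) in FR PB (1.12 ± 0.16, adjusted p = 9.58e-07, edgeR), without overlap. Sult1a1, the phenol sulfotransferase, was 87.48 to 139.8 CPM (median 113.6) in Con and 111 to 221.9 CPM (median 169.5) in PB livers. The groups overlapped, and the difference of 0.54 ± 0.18 did not pass (adjusted p = 0.0608, edgeR); it passed when mouse 18B (0.63, adjusted p = 0.0105), 75C (0.60, 0.0336) or 8D (0.60, 0.0465) was left out, while within the L number that held both treatments it was 0.24 (adjusted p = 0.527). Sult5a1 was low, 10.8 to 19.68 CPM (median 15.17) in Con and 16.01 to 31.02 CPM (median 23.27) in PB livers. These ranges overlapped as well. Sult5a1 passed with a change of 0.67 ± 0.20 (adjusted p = 0.0262, edgeR), but the call was lost when any 1 of 6 mice was left out (18B, adjusted p = 0.0666; 18D, 0.0881; 20B, 0.0518; 21C, 0.0693; 82B, 0.0665; 8C, 0.0511).

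Papss2, which makes PAPS for the sulfotransferases, was 119.4 to 160.4 CPM (median 143.3) in FR Con and 179.2 to 267 CPM (median 235.7) in FR PB. All PB livers were above all Con livers, and the rise was 1.62-fold (0.70 ± 0.11, adjusted p = 1.6e-05, edgeR). Within the L number that held 6 Con and 2 PB libraries of FR, the same 9 genes passed, with changes of 1.79 for Ugt2b34, 1.64 for Ugt2b35, 1.56 for Ugt1a1, 1.08 for Ugt2b1, 1.04 for Sult5a1 and 0.66 for Papss2.

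The next comparison asked whether the PB response was kept in the other preparations. At an adjusted p under 0.05, 8 genes rose in FFPE (as did 4.64% of all genes), 8 also in FR>FFPE (6.25%), and 9 in FR>OH (8.43%). None fell. With a fold of at least 2, the counts were 6 for FFPE (1.65% of all genes), 5 for FR>FFPE (1.71%), then 7 for FR>OH (2.12%). Ugt2b34, Ugt2b35, Ugt2b36, Ugt1a1 and Sult1d1 were in all 4 of these lists. Ugt2b5 crossed a 2-fold rise in FFPE (2.02-fold) and FR>OH (2.23-fold) but not in FR (1.95-fold) or FR>FFPE (1.87-fold), and Ugt2b1 did in FR>OH alone (2.07-fold). These are small steps around the limit, and the tests of the difference are given further on. Within the L number that held both treatments, the same 8 genes passed in FFPE, and 8 passed in FR>OH.

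**Figure D2:**
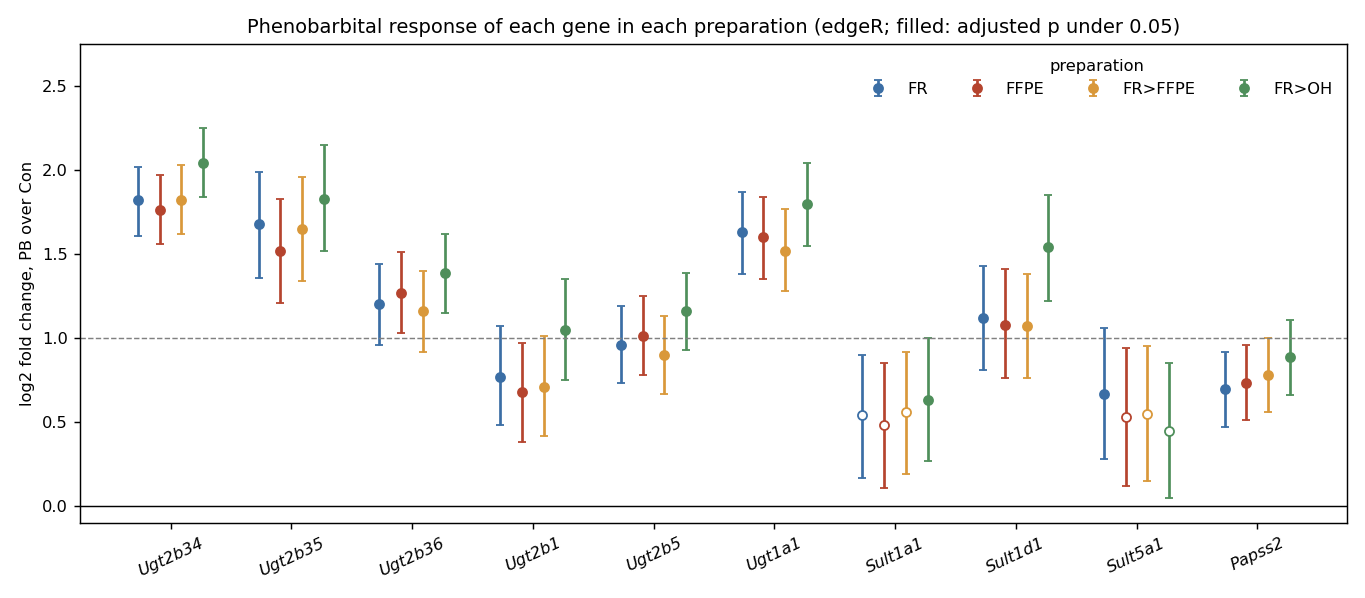
Log2 change of each gene in PB compared to Con mice in the 4 preparations, with bars for the 95% interval of the edgeR fit, filled points for an adjusted p under 0.05 and a dashed line at a 2-fold rise. Ugt2b34 is the highest in each preparation, at 1.76 to 2.04, and intervals of the 4 preparations overlap for every gene.

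In FFPE liver, Ugt2b34 was 283.5 to 351.7 CPM (median 298.9) in Con and 841.2 to 1283 CPM (median 1000) in PB. That was a 3.39-fold rise, and in FR>FFPE and FR>OH the rise was 3.54-fold and 4.13-fold. Ugt1a1 was 99.76 to 165.8 CPM (median 116.5) in FFPE Con and 340.1 to 409.8 CPM (median 372.2) in FFPE PB, a 3.03-fold rise from levels that were less than those of FR. Sult1d1 was 33.52 to 64.47 CPM (median 41.46) in FFPE Con and 72.19 to 120.1 CPM (median 95.88) in FFPE PB, 2.12-fold higher. In FR>OH it was 37.78 to 64.28 CPM (median 50.99) in Con and 109.1 to 183.6 CPM (median 146.5) in PB livers, 2.9-fold higher. Apart from Sult1a1 and Sult5a1, the Con and PB ranges of these genes did not overlap in any preparation. The share of all genes without such overlap was not worked out.

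Sult1a1 and Sult5a1 overlapped between Con and PB in all 4 preparations. Sult1a1 passed only in FR>OH (0.63 ± 0.19, adjusted p = 0.018, edgeR), and this call was lost without mouse 20B (adjusted p = 0.0588), 20D (0.0508) or 80B (0.0523) and within the single L number that held both treatments (0.59, 0.253). It did not pass in FFPE (0.48 ± 0.19, adjusted p = 0.131) or FR>FFPE (0.56 ± 0.19, 0.0568), but did without mouse 18B (0.0284 and 0.0117) and, in FR>FFPE, without 75C (0.0313) or 8D (0.04). Sult5a1 did not pass in FFPE (0.53 ± 0.21, adjusted p = 0.124), FR>FFPE (0.55 ± 0.20, 0.0941) or FR>OH (0.45 ± 0.20, 0.149). Without mouse 20D it passed in each (0.039, 0.0266 and 0.0379), and without mouse 8A it passed in FFPE (0.0432) and FR>FFPE (0.0329). Both estimates were above 0 in every preparation.

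The difference in PB response between a preparation and FR was tested directly as an interaction. None of the 10 genes passed in any of the 3 interactions, and 0% of the 13360 genes did (edgeR). No gene of the 10 reached an unadjusted p of 0.05 with edgeR, DESeq2 or limma, and the smallest by edgeR were 0.478 (FFPE), 0.542 (FR>FFPE) and 0.0689 (FR>OH). Of all genes, 3.47%, 2.16% and 2.27% were under 0.05 by edgeR, so few of the 10 would be looked for there. Intervals of this fit, which leaves out the pairing by mouse, still allow differences of some size. For Ugt2b34 the FFPE response minus the FR response was -0.06 on the log2 scale (95% interval -0.34 to 0.22). It was -0.03 for Ugt1a1 (-0.37 to 0.31), -0.10 for Ugt2b1 (-0.51 to 0.32), -0.06 for Sult1a1 (-0.58 to 0.46) and 0.04 for Papss2 (-0.27 to 0.35). In FR>OH the difference was above 0 for 9 genes, from 0.10 for Sult1a1 to 0.41 ± 0.22 for Sult1d1, and was -0.22 ± 0.28 for Sult5a1, where the median over all genes was 0.0244.

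Since all 4 preparations came from the same mice, the mouse can be entered as a block. Standard errors of the FFPE interactions were smaller with this pairing. Values were -0.06 ± 0.07 for Ugt2b34, -0.04 ± 0.08 for Ugt1a1, -0.10 ± 0.08 for Ugt2b1, -0.08 ± 0.08 for Sult1a1 and 0.03 ± 0.06 for Papss2. In that fit Sult1d1 passed for FR>OH (0.41 ± 0.08, adjusted p = 0.00912, edgeR), as did 0.277% of all genes, and 9 of the 10 genes had an unadjusted p under 0.05 against 8.36% of all genes. Next to Sult1d1 came Ugt2b1 (0.30 ± 0.08, adjusted p = 0.104) and Ugt2b34 (0.22 ± 0.07, 0.197), which did not pass. PB libraries of FR>OH all had L number 5, and Con libraries had 4 or 5. Within the L number that held both treatments, the PB change of Sult1d1 was 1.25 in FR and 1.41 in FR>OH. It was 1.79 and 2.04 for Ugt2b34, and 1.08 and 0.95 for Ugt2b1. The part of the L number in these differences was not tested. For FFPE and FR>FFPE none of the 10 passed with the block (smallest adjusted p = 0.538 and 0.648, edgeR), where 0.00749% and 0% of all genes did. At an unadjusted p under 0.05 there were 1 and 0 of the 10 genes, against 8.56% and 8.74% of all genes.

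The third comparison was between preparations of the same livers. FFPE compared to FR was lower for 7 genes at an adjusted p under 0.05 in both Con and PB mice (11.7% of all genes were), and for Ugt2b5, Ugt2b36 and Ugt1a1 by at least 2-fold in both (1.28% of all genes). Scaling matters here. The median change of all genes in this comparison was 0.32 in Con and 0.321 in PB on the log2 scale of the main fit, 0.0429 and 0.0373 after TMM scaling, and -0.639 and -0.617 when libraries were scaled to total reads, so that a gene at 0 on the main scale stood below the median gene. The 7 genes called lower, and Ugt2b35, were lower under every scaling tried, whereas Papss2 and Sult5a1 changed direction.

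**Figure D3:**
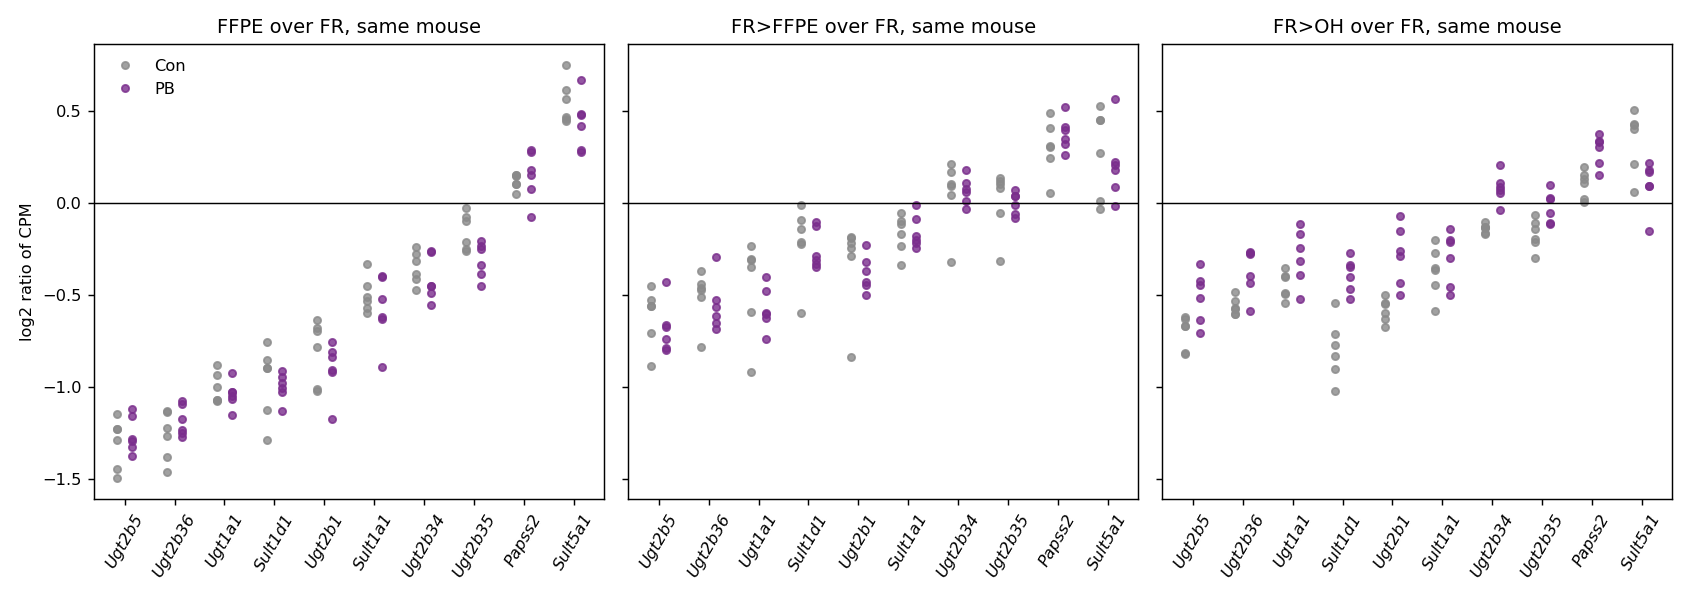
Log2 ratio of CPM between an embedded preparation and FR of the same mouse, 1 point per mouse, for the 10 genes in Con and PB mice; the line marks no change. In FFPE all 12 mice are below the line for each gene but Papss2 and Sult5a1, and all 12 are above it for Sult5a1. The share of all genes with such a pattern was not worked out. The medians lie nearer to the line in FR>FFPE and FR>OH for each gene but Papss2. Its median ratio is 1.109 (FFPE), 1.26 (FR>FFPE) and 1.128 (FR>OH).

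Ugt2b5 was 193 to 261.3 CPM (median 216.4) in FFPE Con against 427.7 to 711.97 CPM in FR Con, a change of -1.32 ± 0.12 in Con and -1.26 ± 0.12 in PB mice (adjusted p = 6.36e-13 and 1.21e-12, edgeR). Ugt2b36 was 109.8 to 203.7 CPM (median 145.8) in FFPE Con and 330.9 to 400 CPM (median 362.8) in FFPE PB, and changed by -1.26 ± 0.12 and -1.19 ± 0.12. FFPE and FR values did not overlap for either gene in either treatment. As CPM, Ugt2b36 in FFPE with PB thus reached only the level of FR without PB (medians of 362.8 and 369.3), a match that depends on this scaling. Ugt1a1 changed by -1.01 ± 0.12 and -1.04 ± 0.12, Sult1d1 by -0.96 ± 0.16 and -1.0 ± 0.16, and Ugt2b1 by -0.82 ± 0.15 and -0.91 ± 0.15. Per mouse, the FFPE to FR ratio was below 1 in 12 of 12 mice for all of these, with medians of 0.410 for Ugt2b5, 0.427 for Ugt2b36, 0.486 for Ugt1a1, 0.513 for Sult1d1 and 0.564 for Ugt2b1.

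Ugt2b34 and Ugt2b35 were much less affected than their neighbours. Ugt2b34 changed by -0.35 ± 0.10 in Con and -0.41 ± 0.10 in PB mice (adjusted p = 0.00311 and 0.000584, edgeR). Ugt2b35 changed by -0.14 ± 0.16 and -0.30 ± 0.15 and did not pass (adjusted p = 0.44 and 0.0879), although FFPE was below FR in 12 of 12 mice for both genes. The Ugt2b35 call depended on scaling, since its mean change passed at -0.50 with TMM scaling (adjusted p = 0.0417), -0.51 with DESeq2 (0.032), -1.18 on total reads (5.21e-07) and -1.19 with limma (3.45e-07). Ugt2b35 was 135 to 210 CPM (median 158.4) in FFPE Con, overlapping with FR Con. Sult1a1 changed by -0.49 ± 0.19 and -0.55 ± 0.19 (adjusted p = 0.023 and 0.00977), a call that was lost without mouse 8A (adjusted p = 0.0591) or 90C (0.0545). With the L number as a term, the calls of Ugt2b34 (-0.25 and -0.31, adjusted p = 0.334 and 0.178) and Sult1a1 (-0.36 and -0.17, 0.443 and 0.702) were lost and the other 5 remained. In Con mice all FFPE libraries had L number 1 and all FR libraries 2. The step between these numbers is thus estimated from FFPE PB alone, where only 75C and 80B had number 2. In Con mice the changes with this term rest on those PB libraries.

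Sult5a1 and Papss2 went the other way on this scale. Sult5a1 was 16.09 to 33.14 CPM (median 20.74) in FFPE Con and 21.43 to 43.19 CPM (median 30.42) in FFPE PB, higher than FR by 0.57 ± 0.21 in Con (adjusted p = 0.0182, edgeR) and by 0.43 ± 0.20 in PB (0.0606), and it passed in both treatments without mouse 8A (0.0459) or 8C (0.0425). FFPE was higher in 12 of 12 mice, with ratios of 1.213 to 1.684. Papss2 was 128.2 to 172.5 CPM (median 159.1) in FFPE Con and 198.9 to 325.4 CPM (median 264) in FFPE PB, differing by 0.12 ± 0.11 and 0.16 ± 0.11 (adjusted p = 0.372 and 0.221), and was higher in 11 of 12 mice. Averaged over Con and PB, Papss2 was 0.14 on the main scale, -0.14 after TMM scaling and -0.81 on total reads, and Sult5a1 was 0.50, 0.22 and -0.46.

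With the mouse as a block, all 10 genes passed in FFPE compared to FR, 8 lower (14.4% of all genes) and 2 higher (45% of all genes). Ugt2b35 then passed as lower (-0.15 ± 0.05 in Con and -0.31 ± 0.05 in PB, adjusted p = 0.00511 and 4.1e-08, edgeR), Sult5a1 as higher (0.55 ± 0.09 and 0.43 ± 0.08, 2.06e-07 and 3.48e-06) and Papss2 as higher (0.12 ± 0.05 and 0.15 ± 0.04, 0.0221 and 0.00277).

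Values of other measures moved with this comparison too. The sum of the 6 hepatocyte markers had medians of 74460 CPM (FR) and 33620 CPM (FFPE) in Con mice, and of 57040 and 28710 CPM in PB mice. The 5 endothelial markers of Con mice summed to 246.1 to 304.3 CPM (FR) and 281.7 to 330.4 CPM (FFPE), the 5 Kupffer cell markers to 208.8 to 376.2 and 134.7 to 248.4 CPM, the 5 stellate cell and fibroblast markers to 297.2 to 430 and 195.8 to 298.2 CPM, the 4 cholangiocyte markers to 7.412 to 15.21 and 9.881 to 24.5 CPM and the 4 red blood cell markers to 286 to 530.5 and 116.7 to 298.7 CPM, and no marker was at 0 throughout a group. The part of these shifts and of the higher Rn45s in the changes of the 10 genes was not tested.

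On the main scale the change from FR was smaller in FR>FFPE than in FFPE for each gene but Papss2. In FR>FFPE compared to FR, 3 genes were lower in both treatments (4.93% of all genes), Ugt2b5 (-0.63 ± 0.12 and -0.69 ± 0.12), Ugt2b36 (-0.52 ± 0.12 and -0.56 ± 0.12) and Ugt1a1 (-0.46 ± 0.12 and -0.57 ± 0.12), and none by 2-fold (0.0225% of all genes). Papss2 was higher (0.30 ± 0.11 and 0.39 ± 0.11, adjusted p = 0.0245 and 0.00324, edgeR), as were 38.7% of all genes. Papss2 stood at 145.9 to 191.7 CPM (median 177.3) in Con and 214.8 to 351.9 CPM (median 306.7) in PB, and was higher than FR in 12 of 12 mice, but its mean change was 0.04 after TMM scaling (adjusted p = 0.861) and -0.04 on total reads, and the call was lost without mouse 8A (0.0546), 8C (0.0749), 8D (0.0569) or 90C (0.0745) and without the FR>FFPE library of mouse 21C (0.0519). Ugt2b34 (0.06 ± 0.10 in both treatments) and Ugt2b35 (0.03 ± 0.16 and 0.00 ± 0.15) did not pass, and were at -0.24 and -0.28 after TMM scaling. Ugt2b1 changed by -0.33 ± 0.15 and -0.39 ± 0.15 (adjusted p = 0.0647 and 0.0237) and passed in both without mouse 80B (0.0412). Other scalings gave 5 genes lower with TMM or DESeq2 and 6 on total reads or with limma, and 0 higher with each of these. Shares of all genes under these scalings were not worked out, so these counts have no background. With TMM Ugt2b1 passed in both treatments at a mean change of -0.67 (adjusted p = 0.000753) and Sult1d1 at -0.54 (0.0242), and on total reads Sult1a1 did at -0.55 (0.0402). The Ugt2b sum changed by -0.32 in Con and -0.29 in PB (adjusted p = 0.00589 and 0.0102) and the Ugt1a sum by -0.30 and -0.40 (0.0136 and 0.000922). With the mouse as a block 8 genes passed, 6 lower (7.91% of all genes) and 2 higher (47.5% of all genes). The 4 added were Ugt2b1 (-0.32 and -0.38), Sult1d1 (-0.21 and -0.25) and Sult1a1 (-0.17 and -0.16) as lower and Sult5a1 (0.29 and 0.20) as higher.

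In FR>OH compared to FR, 3 genes were lower in both treatments (6.03% of all genes) and none by 2-fold (0.0524%). Ugt2b5 changed by -0.71 ± 0.12 in Con and -0.51 ± 0.12 in PB mice, Ugt2b36 by -0.56 ± 0.12 and -0.37 ± 0.12, and Sult1d1 by -0.81 ± 0.16 and -0.39 ± 0.16 (adjusted p = 5.84e-05 and 0.0425, edgeR). The Sult1d1 call was lost without mouse 18B (0.0849), 18D (0.0906), 20D (0.114) or 80B (0.0756) or without the low-count filter (0.0536), and that of Ugt2b36 without 20D (0.0555), so that 1 of the 3 remained without 20D. Ugt1a1 (-0.46 ± 0.12 and -0.29 ± 0.12) missed in PB mice (adjusted p = 0.056) and passed without mouse 21C (0.0172) or 8A (0.0347). Other scalings gave 5 genes lower with TMM and 6 with DESeq2, total reads or limma, again without a share of all genes to set beside them. Ugt1a1 (-0.54, adjusted p = 0.00222) and Ugt2b1 (-0.62, 0.00555) were those added with TMM, and Sult1a1 was added with DESeq2 (-0.52, 0.044). As family sums the calls of Ugt2b5 and Ugt2b36 were lost, since the Ugt2b sum changed by -0.49 in Con and -0.21 in PB (adjusted p = 6.09e-05 and 0.0877) and the Ugt1a sum by -0.29 and -0.21 (0.0179 and 0.0934), whereas the Sult1 sum passed at -0.55 and -0.34 (0.000842 and 0.0371). With the mouse as a block, 6 genes were lower (10.2% of all genes) and none of the 10 higher (33.8% of all genes), the 3 added being Ugt1a1, Ugt2b1 (-0.58 and -0.29) and Sult1a1 (-0.37 and -0.30).

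Comparisons with FR share the FR libraries, so FFPE was also set directly against FR>FFPE. Both went through the same formalin and paraffin steps, with or without a freeze first. Per the study's methods, FFPE pieces were fixed at collection, whereas FR, FR>FFPE and FR>OH portions were cut later from frozen liver. FFPE and FR>FFPE also shared no L number, so that freezing, tissue piece and L number cannot be told apart. Here 6 genes were lower in FFPE in both treatments (5.7% of all genes) and none by 2-fold (0.015%). They were Sult1d1 (-0.75 ± 0.16 and -0.74 ± 0.16), Ugt2b36 (-0.74 ± 0.12 and -0.63 ± 0.12), Ugt2b5 (-0.69 ± 0.12 and -0.58 ± 0.12), Ugt1a1 (-0.55 ± 0.12 and -0.47 ± 0.12), Ugt2b1 (-0.49 ± 0.15 and -0.52 ± 0.15) and Ugt2b34 (-0.41 ± 0.10 and -0.47 ± 0.10). The median of all genes was 0.0111 in Con and -0.0418 in PB. Each of these 6 was lower in FFPE in 12 of 12 mice, but so was Papss2, which was not called. Ugt2b35 and Sult1a1, also not called, were lower in 11 of 12. The share of all genes with such a pattern was not worked out. The call of Ugt2b1 (adjusted p = 0.0243 and 0.0129, edgeR) was lost without mouse 20D (0.0514), 8A (0.0531), 8C (0.107), 8D (0.0717) or 90C (0.0614). The Ugt1a sum changed by -0.29 in Con and -0.30 in PB and did not pass in Con (adjusted p = 0.0533 and 0.0396), so the Ugt1a1 call was lost there, while the Ugt2b sum passed at -0.50 and -0.49 (0.000304 and 0.000305). On total reads Ugt2b35 (-0.81), Sult1a1 (-0.92) and Papss2 (-0.77) passed as lower too. With the mouse as a block 9 genes were lower (12.1% of all genes), with Papss2 (-0.18 and -0.23), Ugt2b35 (-0.17 and -0.31) and Sult1a1 (-0.33 and -0.41) added, and Sult5a1 was higher (0.27 and 0.23, with 7.46% of all genes higher).

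Shares within a gene family do not depend on how libraries are scaled. They are tied to each other, so that some must rise where others fall. A higher share in FFPE here means a smaller fall than the rest of the family had, not a higher level. From FR Con to FFPE Con, the share of the Ugt2b counts held by Ugt2b34 went from 16.6% ± 1.97 to 22.7% ± 1.7 (SD, n = 6) and that of Ugt2b35 from 7.94% ± 1.36 to 12.5% ± 2.09. Ugt2b5 went from 23.3% ± 1.23 to 16.5% ± 0.932, and Ugt2b36 from 15.2% ± 1.14 to 11.2% ± 1.85. In 12 of 12 mice the share of Ugt2b34 and of Ugt2b35 was higher in FFPE than in FR and that of Ugt2b36 and Ugt2b5 lower, by medians of 6.64, 4.19, -4.06 and -6 percentage points. The share of Ugt2b1 was 35.9% and 36.1% in Con and was lower in FFPE in 9 of 12 mice.

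**Figure D4:**
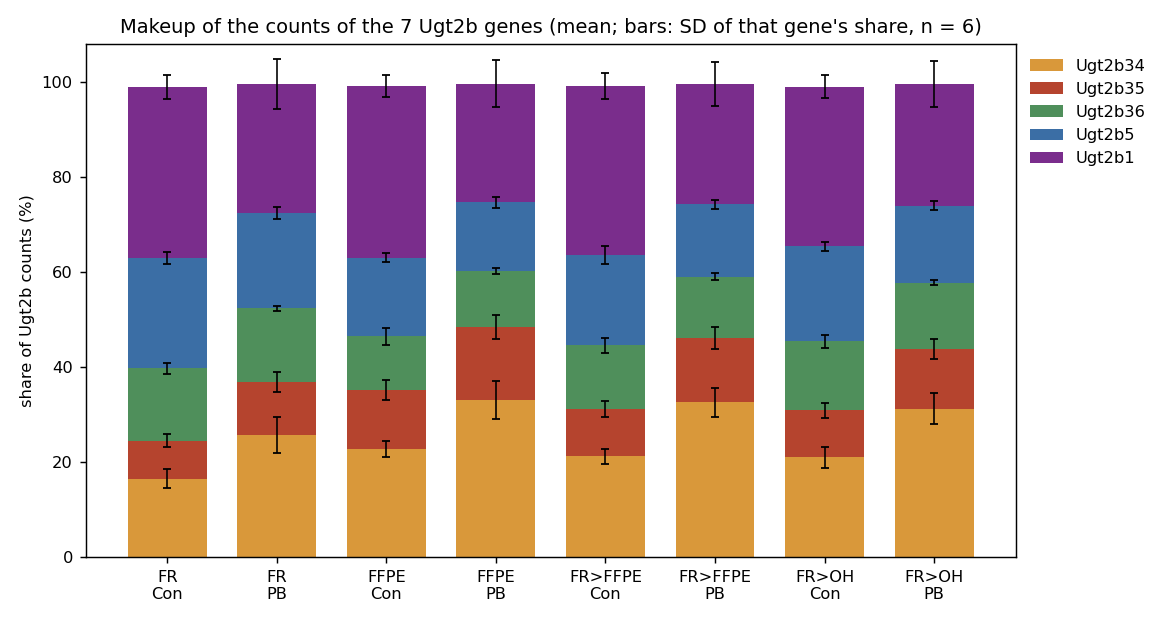
Makeup of the summed counts of the 7 Ugt2b genes in percent, by preparation and treatment, as stacked mean shares of 6 mice for the 5 genes followed here, each with the SD of its own share. The Ugt2b34 and Ugt2b35 blocks are taller in FFPE than in FR, and those of Ugt2b5 and Ugt2b36 shorter, in both treatments.

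The same 12 of 12 mice pattern held for all 4 of these genes in FR>FFPE and in FR>OH compared to FR, with smaller medians of 5.62 and 5.07 points for Ugt2b34 and -4.83 and -3.71 points for Ugt2b5. Within the Ugt1a sum, Ugt1a1 went from 39.6% ± 2.37 in FR Con to 29.6% ± 1.27 in FFPE Con and from 56.9% ± 1.21 to 44.8% ± 0.95 in PB, lower in 12 of 12 mice. Among the Sult1 genes the share of Sult1a1 was higher in FFPE in 12 of 12 mice, by a median of 5.68 points, and that of Sult1d1 lower in 12 of 12, by -6.86 points. As sums, the Ugt2b family changed by -0.82 ± 0.0975 in Con and -0.78 ± 0.0974 in PB mice in FFPE compared to FR, the Ugt1a family by -0.59 ± 0.103 and -0.70 ± 0.103 and the Sult1 family by -0.65 ± 0.135 and -0.77 ± 0.135.

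Transcript length ran along with these differences, a pattern that was noticed in the data and is given as a description. The 2 Ugt2b genes that fell most had the shortest Ugt2b transcripts (Ugt2b5 1858 and Ugt2b36 1888 bases), Ugt2b1 (2573 bases) was between, and Ugt2b34 (3051) and Ugt2b35 (3359) were longest. Papss2 (3635) and Sult5a1 (3805) had the longest of all 10. Across the 10 genes Spearman's rho of length and FFPE to FR change was 0.82, and across the 12529 tested genes with a length (93.8%) it was 0.43. The gene that broke the order was Sult1a1, the shortest at 1370 bases but changed by only -0.49 and -0.55.

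**Figure D5:**
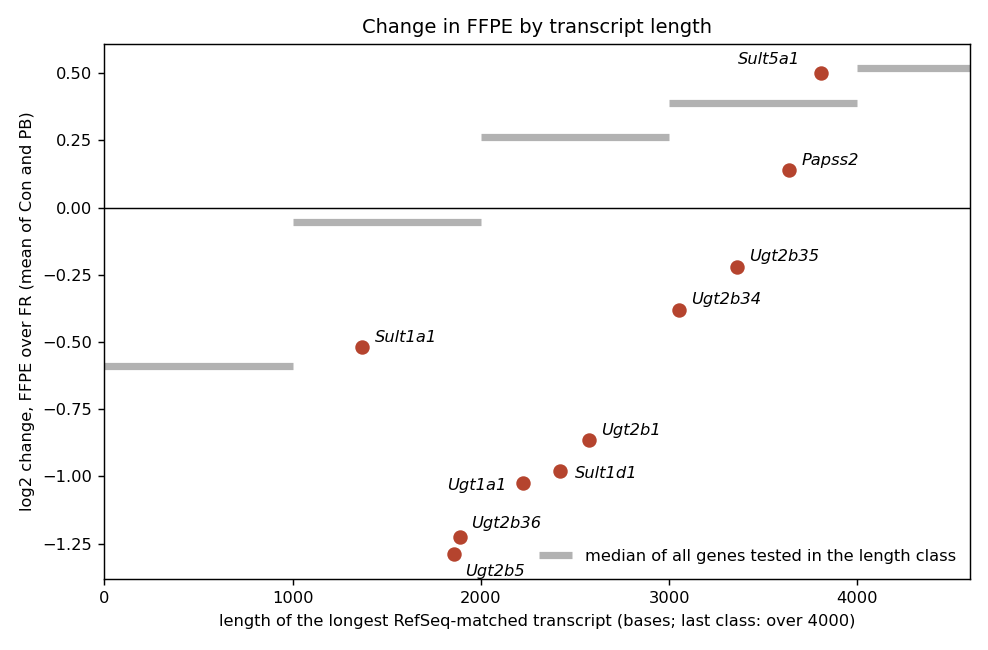
Log2 change in FFPE compared to FR, averaged over Con and PB mice, against transcript length in bases for the 10 genes, with grey bars at the median of all tested genes in each length class. The genes run from -1.29 for Ugt2b5 at 1858 bases to 0.50 for Sult5a1 at 3805 bases, and 9 of 10 lie below the bar of their class.

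For FR>FFPE the rho was 0.78 over the 10 genes and 0.46 over all, and for FR>OH 0.75 and 0.33. These values share the FR libraries, and genes are not independent replicates. Over all genes the median FFPE to FR change was -0.59 for the 660 transcripts up to 1000 bases, -0.0543 for 2527 of 1000 to 2000 bases, 0.262 for 2836 of 2000 to 3000 bases, 0.388 for 2276 of 3000 to 4000 bases and 0.518 for 4230 longer ones. Set against their own length class, Ugt2b5, Ugt2b36, Ugt1a1 (2224 bases), Sult1d1 (2420), Ugt2b1, Ugt2b34 and Ugt2b35 were each below its median, as were Sult1a1 and Papss2, while Sult5a1 at 0.50 was above the 0.388 of its class. GC content, which was 32.9% for Sult1d1, 39.2% to 41.1% for the Ugt2b genes and 51.6% for Sult5a1, gave rho of 0.50 over the 10 genes and 0.34 over all in FFPE. The part of length, GC and the shorter fragmentation of FFPE samples in these changes was not tested.

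Other genes of the same pathways were read from lists that held 47 further genes of the count table. Beside the genes that the rule for named genes gave, those named here were named after their values were seen. Of the other UGT genes 12 of 16 were tested, and in FR 4 rose with PB (5.85% of all genes did) and none fell, with a median change of 0.56 where that of all genes was 0.00362. They were Ugt1a6b (0.58 ± 0.09), Ugt1a6a (0.56 ± 0.11), Ugt1a9 (1.45 ± 0.24) and Ugt1a10. Ugt1a10 was 0.138 to 0.612 CPM (median 0.434) in FR Con and 0.767 to 2.32 CPM (median 1.83) in FR PB, so it was barely detected (2.05 ± 0.52, adjusted p = 0.00636, edgeR), and it did not pass in the other preparations (adjusted p = 0.191 to 0.531).

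The supply of UDP-glucuronate and the removal of its conjugates were represented by 4 genes. With PB, 3 of them rose in FFPE (4.64% of all genes), 2 in FR>FFPE (6.25%) and 2 in FR>OH (8.43%). In FR 1 rose (5.85% of all genes). This was Ugdh, the dehydrogenase that makes UDP-glucuronate, at 87.5 to 110 CPM (median 89.9) in FR Con and 154 to 276 CPM (median 188) in FR PB (1.13 ± 0.16, adjusted p = 6.09e-07, edgeR). For export of conjugates 2 of 4 genes rose in every preparation, beside 4.64% to 8.43% of all genes. Abcc2, the pump of the bile canaliculus, rose by 0.72 ± 0.12 in FR. Abcc3, a pump of the sinusoidal membrane, went from 20.2 to 105 CPM (median 28.1) to 312 to 469 CPM (median 427), a rise of 3.25 ± 0.39 (adjusted p = 2.7e-08, edgeR) that was 3.31 to 3.43 in the other preparations.

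Of the other sulfotransferases only 5 of 17 passed the low-count filter, and 2 rose in FR (5.85% of all genes) while none fell. Sult1c2 was 2.54 to 3.61 CPM (median 2.7) in FR Con and 8.54 to 13.4 CPM (median 11.8) in FR PB (1.95 ± 0.22). Sult1e1, the estrogen sulfotransferase, was 0.0782 to 1.4 CPM (median 0.334) in FR Con and 1.2 to 22.7 CPM (median 4.38) in FR PB (3.96 ± 0.78, adjusted p = 0.000429, edgeR), with overlapping ranges. Of 7 tested genes for the supply and removal of PAPS and sulfate, 2 rose in FR, again against 5.85% of all genes. The sulfate transporter gene Slc26a1 went from 229 to 242 CPM to 273 to 343 CPM (0.39 ± 0.06), and Bpnt1, which encodes a phosphatase of spent PAPS, rose by 0.28 ± 0.07. Papss1, the second PAPS synthase gene, did not pass (-0.05 ± 0.14, adjusted p = 0.88).

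In FFPE compared to FR, 7 of the 12 other UGT genes were lower (11.7% of all genes) and none higher (39.5%), with a median change of -0.56 where that of all genes was 0.32 in Con and 0.321 in PB, and each of the 7 was lower under the other scalings too. In Con mice Ugt2a3 was 178 to 260 CPM for FR and 88.3 to 118 CPM for FFPE (-1.09 ± 0.18, and -1.01 ± 0.18 in PB). It passed as lower in both treatments, whereas its change between PB and Con mice in FR had not passed. Ugt1a9 changed by -1.10 ± 0.28 and -1.31 ± 0.25, and Ugt2b38 by -1.08 ± 0.38 and -1.17 ± 0.39. None of the 5 other sulfotransferase genes passed in both treatments.

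Of the supply and export genes, Ugp2 (-0.72 ± 0.23 and -0.78 ± 0.23), Ugdh (-0.55 ± 0.16 and -0.57 ± 0.16), Papss1 (-0.86 ± 0.16 and -0.72 ± 0.16) and Abcg2 (-0.89 ± 0.12 and -0.87 ± 0.12) were lower, as were 11.7% of all genes, and 2 genes were higher, as were 39.5%. Slc35d1, which carries UDP-glucuronate into the endoplasmic reticulum, was 63.9 to 79.1 CPM for FR and 120 to 145 CPM for FFPE in Con mice (0.89 ± 0.08, and 1.07 ± 0.08 in PB), and its change in Con was 0.61 after TMM scaling and -0.08 on total reads. Slc26a1 was higher by 0.22 ± 0.06 and 0.20 ± 0.06, less than the median gene, and its change in Con was -0.06 after TMM scaling and -0.74 on total reads.

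The genes were also compared by how their levels ran over all 48 libraries, which share treatment, preparation and depth differences. Ugt2b34 was most like Ugt2b35 (Pearson r = 0.982 of log2(CPM + 1), among 7952 genes) and Gstm3 (0.974), and Ugt2b35 was next most like Gstm3 (0.961). Ugt2b36 was most like Ugt2b5 (0.978) and Ugt1a1 (0.971), Ugt2b5 was next most like Akr1a1 (0.959), and Ugt2b1 was most like Ugt2b5 (0.933) and Agmo (0.93). Ugt2b35 and Ugt2b5 were less alike (0.757). Ugt1a1 was most like Ces2a (0.978) and Cyb5a (0.977), Sult1d1 most like Cyb5a (0.943) and Gstt1 (0.942), and Sult1a1 most like Lipa (0.849) and Gstt1 (0.847). Papss2 was most like Entpd5 (0.938) and 4931406C07Rik (0.922), and Sult5a1 most like F2r (0.795) and Kcnk1 (0.781).

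Differences between mice carried over in part from one preparation to the next. Over the 20 sets of 1 gene in 1 treatment, the mouse that was highest in FR was highest in all 4 preparations in 9 sets, and the mouse lowest in FR was lowest in all 4 in 11 sets. For Ugt2b35 in PB mice, 20B was the highest and 20D the lowest in each preparation. For Ugt2b5 in Con mice these were 21C and 82B, for Sult1a1 in PB mice 80B and 18B, for Sult5a1 in PB mice 18B and 20D, and for Papss2 in PB mice 20B and 75C. Other sets did not keep the order. Among PB mice, 80B for Ugt2b34 and 20D for Ugt1a1 were highest in FR but in no other preparation. The share over all genes was not worked out.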

How the data were processed

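RNA was taken from 48 samples of 12 mouse livers. Per the labels and the study's methods, ribosomal RNA was depleted, stranded total RNA libraries were sequenced as read pairs, and reads were aligned to GRCm38 with STAR 2.5.3a after base calling with CASAVA 1.8.2. The authors deposited estimated counts per gene for 24543 genes, made by expectation-maximization in Partek Flow, of which 92% of values were whole numbers. They also deposited log2 CPM values for 13370 genes. The divisor of these values was worked back here as 17457992 to 28315347 per library. It is called total reads, but what it counts is inferred. Targeted probe assays of the same series were not used here.

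Counts were rounded to whole numbers and fitted with edgeR 4.0.16 (quasi-likelihood test, R 4.3.3) in 1 fit of 48 libraries, with the total over kept genes as library size. Genes with a geometric mean count of 1 or less were left out, which kept 13360, and p-values were adjusted by Benjamini-Hochberg over these. A gene passed at an adjusted p under 0.05, and a preparation comparison was called where Con and PB passed in the same direction. As in the study, a DEG had a fold of at least 2 as well. Intervals (95%) come from the standard errors of the fit. The gene counts summed to 4952797 to 13702672 per library, and CPM used this column total. With 6 mice per group, the spread between mice sets the precision.

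Mouse tags in the titles tie the 4 preparations of each liver. All 72 same-mouse, same-treatment pairs of libraries had deviations from the group means that correlated above 0.1 (median r 0.687, against -0.129 for pairs of different mice, over 6142 genes of at least 10 CPM), so the mouse block is a true pairing. Between libraries of a group, chi-square divided by its degrees of freedom was 6.96 or more, so none was a repeat of another.

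Alternatives were TMM scaling, total reads or all genes as library size, leaving out genes over 1% of any library, DESeq2 1.42.0, limma 3.58.1 on the log2 CPM values, other filters, fitting only the groups compared, the mouse block, the L number, each mouse left out and family sums. Scripts were tested on simulated data with known changes. Tables and figures were made with Python 3.11.15, pandas 2.3.3 and matplotlib 3.10.9. Transcript lengths are those of the longest GENCODE M21 transcript of each gene that is matched to RefSeq.

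The 10 genes and all gene lists were chosen with earlier results of these data known. Of the related genes, those named by rule were up to 3 with the largest rise and up to 3 with the largest fall that passed in FR with PB, and likewise in FFPE compared to FR, at a mean of at least 1 CPM. For likeness, the 2 genes with the highest r were named, among genes with a mean of at least 10 CPM.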

Additional observations from a re-analysis of the deposited data

Results flagged for a closer look

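Of 80 groups of 6 values, 1 for each gene, preparation and treatment, 3 held a sample far from the others by Dixon's test, where chance flags about 1 in 20 groups. Ugt2b34 was 351.7 CPM in FFPE Con mouse 90C, with the next value at 302.9 CPM. Ugt2b5 was 838.8 CPM in FR>FFPE PB mouse 18D, with the next value at 678.2 CPM. Sult1a1 was 109.3 CPM in FR>OH Con mouse 8D, with the next value at 87.53 CPM. The gaps were 0.715, 0.652 and 0.655 of the group's range.

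A difference in PB response between preparations was found for Sult1d1 with the mouse as a block, where the response in FR>OH exceeded that in FR by 0.41 ± 0.08 on the log2 scale (adjusted p = 0.00912, edgeR). Without the block the difference was 0.41 ± 0.22 and did not pass. Within the L number that held both treatments, the PB change of Sult1d1 was 1.25 in FR and 1.41 in FR>OH, closer together than in the fit of all libraries. The part of the L number was not tested.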

How the results depend on the processing

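Changes of single genes were recomputed in 2618 combinations of result and alternative, of which 2455 kept direction and side of the threshold, 36 no longer passed, 76 newly passed and 51 changed sign. Of these 30 were in comparisons between preparations. Papss2 in FFPE compared to FR (0.14) was at -0.14 with TMM scaling, -0.15 with DESeq2, -0.81 with total reads as library size, -0.82 with limma and -0.07 with the L number as a term. Papss2 was at -0.04 with total reads and -0.05 with limma in FR>FFPE compared to FR (0.34), and at -0.13 and -0.14 in FR>OH compared to FR (0.20). Sult5a1 was at -0.46 with both in FFPE compared to FR (0.50), at -0.11 with both in FR>OH compared to FR (0.22) and at -0.32 with both in FFPE compared to FR>FFPE (0.25). In FR>FFPE compared to FR, Sult5a1 (0.25) was at -0.05 with TMM, -0.06 with DESeq2 and -0.14 with total reads and limma, Ugt2b34 (0.06) at -0.24, -0.25, -0.32 (total reads) and -0.33 (limma), and Ugt2b35 (0.01) at -0.28, -0.29, -0.37 and -0.38 and at -0.03 without genes over 1% of any library, and the Ugt2b family sum was -0.30. The other 21 were interactions near 0, none of which passed. In FR>FFPE, Ugt2b34 (0.00) was at -0.06 with TMM and DESeq2, -0.02 with total reads and -0.05 without the FR>FFPE library of mouse 21C, Sult1a1 (0.02) was at -0.04 with TMM and DESeq2, and without single mice these were at -0.06 to -0.00 and -0.02 to -0.01. Without genes over 1% of any library, the FFPE interactions of Ugt1a1 (-0.03) and Sult1d1 (-0.04) were at 0.01 and 0.00. Family sums gave 0.04 for Ugt2b34 (-0.06), Ugt2b35 (-0.16) and Ugt2b1 (-0.10) in FFPE, 0.03 for Ugt2b35 (-0.03), Ugt2b36 (-0.04), Ugt2b1 (-0.06) and Ugt2b5 (-0.06) in FR>FFPE, and -0.02 for Sult1a1 (0.02) in FR>FFPE. Both total reads and the log2 CPM values used with limma rest on the divisor worked back from the authors' CPM. It is larger than the gene counts, and the median gene moves with it. Counts of the 10 genes at a fold of at least 2 depended on the criterion. With adjusted p alone, FFPE compared to FR went from 3 to 7, FR>FFPE compared to FR from 0 to 4, FR>OH compared to FR from 0 to 3, FFPE compared to FR>FFPE from 0 to 6, PB in FR from 5 to 9 and PB in FR>FFPE from 5 to 8. FFPE compared to FR gave 5 with TMM scaling, 5 with DESeq2, 8 with total reads and 8 with limma. FFPE compared to FR>FFPE gave 5 with total reads and 5 with limma, and FR>FFPE compared to FR gave 1 with total reads. PB in FR gave 8 within 1 L number. Why these counts moved was not tested. The share of all genes was not worked out under the other scalings or within 1 L number. Leaving out each mouse in turn gave 2 to 3 genes in FFPE compared to FR, and, for PB, 5 to 6 (FR), 5 to 6 (FFPE), 5 (FR>FFPE) and 6 to 7 (FR>OH), with 0 in the other comparisons at a fold of at least 2. Pairing by the mouse block brought 1 interaction call in FR>OH (main count 0) and the added preparation calls given in the report. A term for the L number could be fitted only for FFPE compared to FR, and the other 3 preparation comparisons were not run with it. Levels under about 20 CPM, as for Sult5a1 in Con livers, rest on the fewest counts.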
